A study of Mus musculus with 6 samples.

Results

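Interferon-stimulated genes were followed in single-cell transcriptomes of congested mouse livers. The group holds 37 genes, chosen by symbol from a list and not from their values, of 25369 genes in the gene list of the series. All mice were wild-type males, 8 to 10 weeks old when the inferior vena cava was partly ligated (pIVCL), an operation that congests the liver. Osmotic pumps were placed 2 weeks after surgery with either DMSO, the vehicle, or CWHM-12 at 100 mg/kg/day, an inhibitor of all integrins that hold the αV subunit. Livers were taken 4 weeks after treatment began, so DMSO and CWHM-12 livers share the ligation and no unligated liver is part of the comparison. There are 3 libraries of each group, numbered here as in the labels. The labels place DMSO 1, DMSO 2 and CWHM-12 1 in batch 2024.6 and the remaining libraries in batch 2024.12. Per the labels, suspensions were adjusted to mostly nonparenchymal cells before library preparation, so cell numbers do not show the makeup of the liver. The labels describe each library as coming from a mouse but give no animal identifier, so each p-value reflects how far the libraries spread, which may be technical variation only.

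Interferons of type I and type III signal through JAK kinases to a complex that holds STAT2 and IRF9 and binds the interferon-stimulated response element (ISRE). Interferon gamma acts through the gamma-activated sequence (GAS), and many genes respond to both routes. In the liver, sinusoidal endothelium and Kupffer cells, the resident macrophages, are exposed to microbial products from the gut and are known to express such genes.

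The 37 genes were ordered by role. There are 3 sensors of foreign nucleic acid (Ifih1, Dhx58, Zbp1) and 4 transcription factors (Irf1, Irf7, Irf9, Stat2). The ubiquitin-like modifier Isg15 stands with Usp18, the protease that removes it. There are 4 IFIT genes (Ifit1, Ifit2, Ifit3, Ifit3b), whose proteins bind foreign RNA, and 4 genes of the OAS family (Oas1a, Oas2, Oas3, Oasl2), named for enzymes that make oligoadenylate in response to double-stranded RNA. Another 10 antiviral effectors include Ifitm3, which hinders the entry of viruses, Bst2 (tetherin), which holds budding virus at the membrane, and Rsad2 (viperin). The interferon-inducible GTPases are 7 genes (Gbp2, Gbp3, Gbp7, Igtp, Irgm1, Iigp1, Ifi47) that act against intracellular pathogens. The last 3 (Tap1, Psmb8, Psmb9) process and transport peptides for MHC class I.

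Of the 37 genes, 29 matched a RefSeq promoter window of 300 bases (250 before to 50 after the start, build GRCm38.p6). The core of the ISRE, GAAA followed by any 2 bases (NN) and GAAA, on either strand, was found for 17 of the 29 (58.6%), beside 3.99% of 27025 genes with such windows. The GAS, TTCNNNGAA, which reads the same on both strands, was found for 8 of the 29 (27.6%), beside 9.55% of all genes. By role, the ISRE core was found in 3 of 4 IFIT genes and 5 of 6 GTPases that matched, and in 0 of 3 peptide-processing genes. Both motifs were found for Oas1a, Gbp7, Igtp, Bst2 and Ifitm3, that is for 17.2% of the matched genes beside 0.614% of all. The match is of letters only and shows no binding. The stretches printed here are of the 5′ to 3′ strand of the gene, with matches to either motif in capitals, and show ISRE cores alone, both motifs, or a GAS alone:

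Ifit3, chr19:34583333-34583472, + strand: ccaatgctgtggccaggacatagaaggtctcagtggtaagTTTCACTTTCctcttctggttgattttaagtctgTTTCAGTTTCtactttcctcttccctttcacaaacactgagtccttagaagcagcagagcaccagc
Isg15, chr4:156200819-156200958, - strand: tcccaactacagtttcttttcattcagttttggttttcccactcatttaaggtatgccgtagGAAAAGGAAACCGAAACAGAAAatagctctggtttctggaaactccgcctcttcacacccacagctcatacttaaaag
Bst2, chr8:71537503-71537642, - strand: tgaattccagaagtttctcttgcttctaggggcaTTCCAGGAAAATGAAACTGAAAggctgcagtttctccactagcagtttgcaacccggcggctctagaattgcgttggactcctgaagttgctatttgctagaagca
Gbp7, chr3:142530196-142530335, + strand: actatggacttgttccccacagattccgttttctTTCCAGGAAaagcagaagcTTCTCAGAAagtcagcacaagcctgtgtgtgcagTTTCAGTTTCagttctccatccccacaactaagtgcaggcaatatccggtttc
Irf1, chr11:53769874-53770013, + strand: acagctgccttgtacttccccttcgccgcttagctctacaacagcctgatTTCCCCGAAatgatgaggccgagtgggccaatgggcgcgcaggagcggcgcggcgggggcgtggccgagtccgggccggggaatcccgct
Psmb8, chr17:34198055-34198194, + strand: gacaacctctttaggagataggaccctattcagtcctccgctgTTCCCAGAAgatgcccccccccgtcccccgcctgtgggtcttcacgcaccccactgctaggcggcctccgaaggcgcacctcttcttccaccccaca

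Ifit3 holds 2 ISRE cores and no GAS in this stretch, and Isg15 holds 3 overlapping ISRE cores. Bst2 has a GAS that overlaps the first of 2 ISRE cores, while Gbp7 has 2 GAS and 1 ISRE core set apart. Irf1 and Psmb8 have 1 GAS each. The stretch of Ifit3 recurs at chr19:34607729-34607868 before Ifit3b, with 0 of 140 bases different. Both genes are near-identical copies, so how reads were split between Ifit3 and Ifit3b is uncertain.

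Libraries held 28220477 to 48100436 UMIs (counted molecules) in 10000 barcodes each, and between 3127 (DMSO 2) and 8348 (CWHM-12 2) cells were kept. No pair of libraries shared more than 5 barcodes. Of 37992 cells, 8.18% lay in clusters that stayed unnamed. The others fell into 16 classes that resemble known types by their markers, of which 6 are called main classes here: liver sinusoidal endothelial cells (LSEC, 10475 cells), hepatocytes (8552), Kupffer cells (5650), B cells (2622), stellate cells (2514) and T cells (1357). Levels are CPM, the counts summed over a class in a library and scaled to a common total with TMM. In such sums, fewer cells that express a gene and less RNA per cell cannot be told apart. Values run from DMSO 1 to DMSO 3 and then from CWHM-12 1 to CWHM-12 3 throughout.

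DMSO 2 stood apart from the other libraries, and several interferon-stimulated genes were extreme in it. Its cells had a median of 11.4% mitochondrial UMIs, beside 7.38% to 10.6% in the others. In the 6 main classes its difference from the mean of the other 5 libraries, as log2 (CPM + 1) over the 5950 to 6653 genes at 20 CPM or more, was negatively correlated across genes with the GC content of the transcripts. Spearman's rho ran from -0.55 to -0.33, while the other libraries, each set against a mean that holds DMSO 2, ran from 0.0064 to 0.41. DMSO 2 was the lowest library for 27.5% to 39.7% of genes and the highest for 27.8% to 39.4%, depending on the class. This pattern was noticed after the values were seen and is given without a test.

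Among the 28 members with 20 CPM or more in at least 4 main classes, 6 were lowest in DMSO 2 in every such class. These were Bst2, on average 1.98 log2 units lower (a mean difference of -1.98), Psmb8 (-1.61), Irf7 (-1.61), Ifi27l2a (-1.35), Isg15 (-1.25) and Psmb9 (-0.85), and the GC content of their transcripts ran from 52.5% to 55.4%. Trim30a, Irf9 and Rtp4 were highest in DMSO 2 in every such class, with mean differences of 0.41, 0.55 and 0.96 and a GC content of 40.8%, 50.4% and 49.0%. The other 19 members had a median GC content of 46.3%, from 39.3% to 55.8%. What sets DMSO 2 apart was not tested. Fold changes of these 9 genes are given with and without it where they are named. Other members were extreme in DMSO 2 in most such classes. Ifitm3 (mean difference -0.55) and Irf1 (-0.45) were lowest in it in 4 of 6. Tap1 (0.49), Gbp2 (0.66) and Oasl2 (0.68) were highest in it in 4 of 5, and Ifit1 (0.74), Ifit2 (0.21) and Ifit3 (0.53) in 3 of 4. The fold changes of these genes in the main classes are given with DMSO 2 included.

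**Figure D1:**
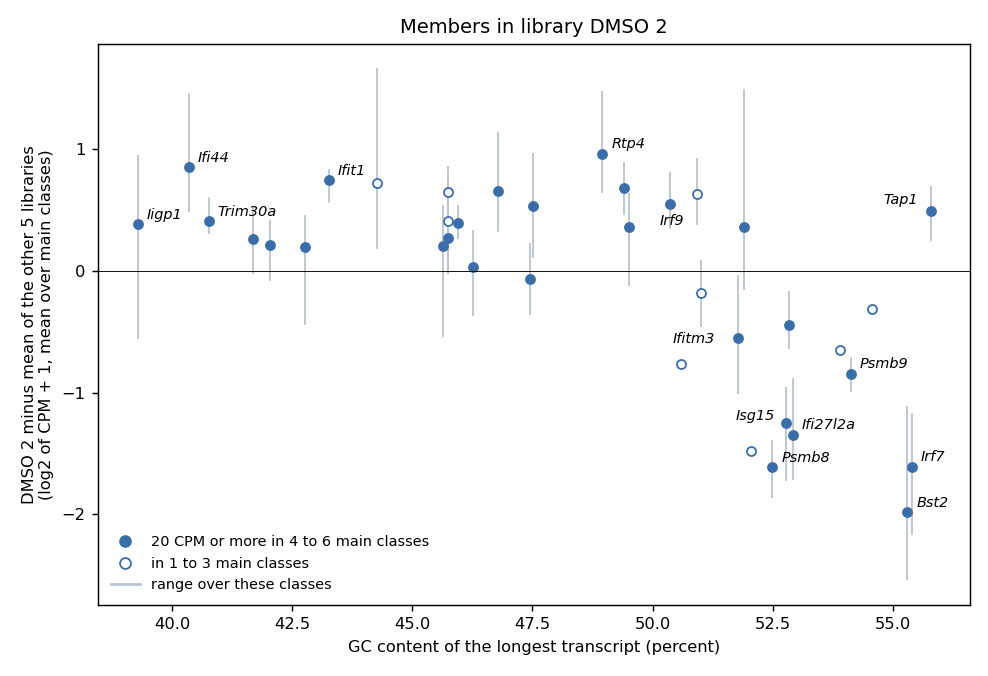
For the 37 members, the mean difference of DMSO 2 from the mean of the other 5 libraries (log2 CPM + 1, vertical axis) against transcript GC content in percent (horizontal axis). Filled points are the 28 members at 20 CPM or more in at least 4 main classes, and open points are the others. Bst2, at -1.98, is farthest below 0, and Rtp4, at 0.96, is farthest above.

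The summed level of the 37 genes differed several-fold between classes. Monocytes and monocyte-derived macrophages had the highest sum, 8098 ± 330 CPM (SD, n = 6 libraries), followed by Kupffer cells with 6914 ± 280 CPM. Their library ranges, 7632 to 8509 and 6638 to 7355 CPM, did not overlap. Of these sums, the other antiviral effectors, which include Ifitm3, held 5059 CPM in monocytes and 3557 CPM in Kupffer cells. The order of these classes rests on that role, and the remaining roles together were not higher in monocytes. Plasmacytoid dendritic cells (5921 ± 1379 CPM, n = 5), portal fibroblasts and mesothelium (5650 ± 768 CPM, n = 5), stellate cells (5614 ± 514 CPM), LSEC (5434 ± 462.5 CPM) and vascular endothelium (5286 ± 565 CPM) came next, at levels that did not differ beyond their spread. B cells had the lowest sum, 1701 ± 114 CPM, near cholangiocytes (1773 ± 352 CPM) and hepatocytes (1947 ± 544 CPM). Since the cells were clustered on genes that can include these, differences between classes are a description without a test.

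**Figure D2:**
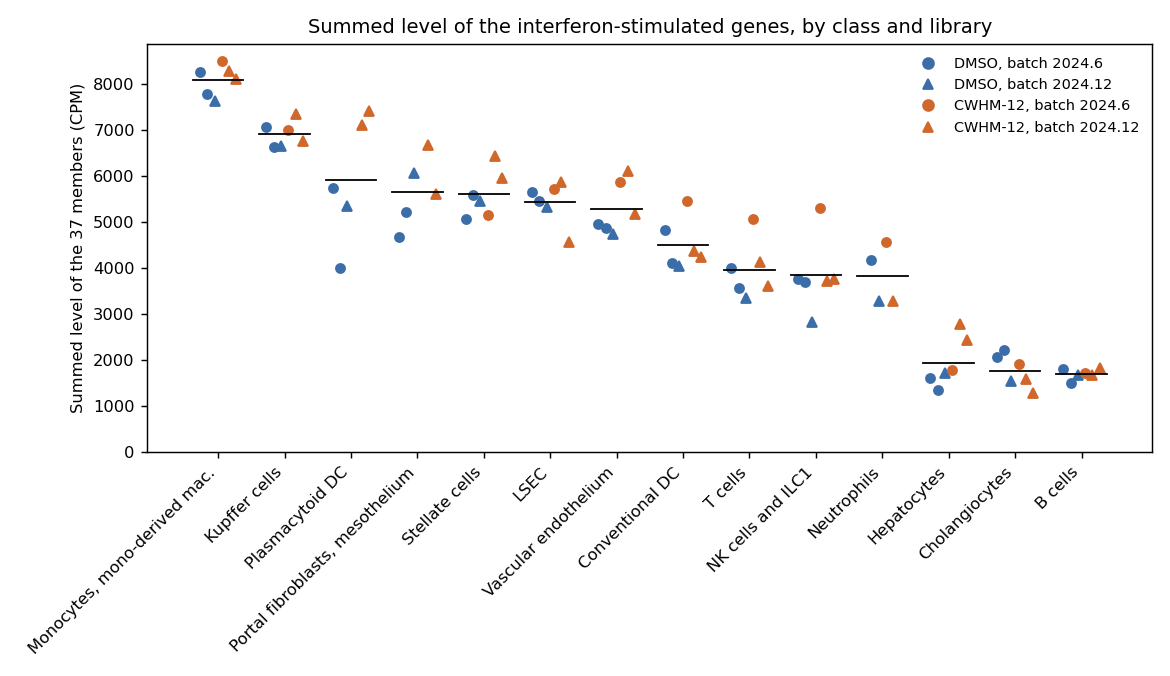
Summed CPM of the 37 genes (vertical axis) by class, with 1 point per library coloured by treatment and a bar at the mean. Monocytes and Kupffer cells are highest, and B cells, at 1701 CPM, are lowest.

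The leading class differed between roles. The sensor Ifih1 (MDA5), which recognises long double-stranded RNA, was highest in stellate cells, at 130 ± 15.4 CPM, and lowest in B cells, at 7.17 ± 3.90 CPM. Its level in portal fibroblasts and mesothelium, 120 ± 46.6 CPM, overlapped that of stellate cells. Of the 244 cells of that mixed class, 204 lay in cluster 31, led by Igfbp5, Slpi and Upk3b, and fibroblasts and mesothelium were not separated. Dhx58 (LGP2) and Zbp1, a sensor of Z-form nucleic acid, were highest in monocytes, at 50.6 ± 16.3 and 93.9 ± 27.8 CPM, with overlapping values in Kupffer cells. LSEC had only 7.38 ± 3.12 CPM of Zbp1.

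Of the transcription factors, Irf7, the factor that amplifies type I interferon production, was highest in Kupffer cells, at 387 ± 132 CPM, and DMSO 2 was its lowest library, at 132 CPM. Irf9 (255 ± 31.1 CPM) and Stat2 (308 ± 51.5 CPM), both members of the ISRE-binding complex, were highest in plasmacytoid dendritic cells. Irf1, a target of interferon gamma, was highest in NK cells and ILC1, at 313 CPM with libraries from 190 to 519 CPM, and its libraries overlapped those of plasmacytoid dendritic cells, T cells and monocytes. Hepatocytes had the lowest Irf1, 30.1 ± 5.17 CPM.

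Ifit1, Ifit3, Ifit3b and Isg15 were highest in stellate cells, and Ifit2 in Kupffer cells, at 83.4 ± 16.4 CPM. Ifit3 reached 192 ± 34.2 CPM there, beside 156 ± 35.02 CPM in Kupffer cells, 116 ± 26.9 CPM in vascular endothelium and 114 ± 27.5 CPM in LSEC. The 4 IFIT genes together stood at 406 ± 57.5 CPM in stellate cells and 31.99 CPM in B cells, the lowest class. Isg15 was at 63.4 ± 18.9 CPM in stellate cells and at 2.56 ± 2.27 CPM in B cells. Usp18 was highest in plasmacytoid dendritic cells, at 45.7 ± 18.1 CPM, close to Kupffer cells at 38.9 ± 8.22 CPM.

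Within the OAS family the order of the classes differed between members. Oasl2, an OAS-like gene, was highest in portal fibroblasts and mesothelium (563 ± 142 CPM), neutrophils (430 ± 294 CPM, n = 4) and monocytes (343 ± 105 CPM), and lowest in hepatocytes, at 9.91 ± 4.07 CPM. Oas1a and Oas2 were highest in Kupffer cells, at 35.4 ± 12.2 and 60.8 ± 13.3 CPM. Oas2 and Oas3 were close to 0 in LSEC, at 0.823 ± 0.344 and 0.354 ± 0.180 CPM, a class in which IFIT genes were well detected.

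Among the other effectors, Ifitm3 was highest in monocytes, at 3432 ± 652 CPM, and was above 1000 CPM in both endothelial classes, stellate cells and Kupffer cells. B cells had 59.7 ± 41.5 CPM and T cells 177 ± 152 CPM. Bst2 was highest in plasmacytoid dendritic cells, for which it is a known marker, at 1478 ± 728 CPM (269 CPM in DMSO 2 and 1318 CPM or more in the others), ahead of LSEC at 454 ± 191 CPM. Rsad2 was at 123 ± 39.8 CPM in neutrophils and 121 ± 22.4 CPM in LSEC, and Ifi44 was highest in LSEC, at 233 ± 80.2 CPM. Trim30a, a regulator of inflammatory signalling, reached 703 CPM in plasmacytoid dendritic cells (500 to 874 CPM), without overlap with the second class, Kupffer cells, at 373 CPM. Not all libraries of the remaining classes lay below that range. Ifi27l2a was at 539 ± 139 CPM in Kupffer cells and 6.60 ± 2.12 CPM in LSEC.

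The GTPases were split between lymphocytes and other classes. Gbp7 and Ifi47 were highest in T cells, at 400 ± 60.0 and 445 ± 44.7 CPM, with NK cells and ILC1 close behind. Igtp (Irgm3) was at 123 to 203 CPM in the T cell libraries, above every library of every other class. Iigp1 (Irga6) went the other way, with its highest level in hepatocytes, 663 ± 199 CPM, and its lowest in B cells, 21.6 ± 10.6 CPM. Gbp2 was at 587 ± 208 CPM in portal fibroblasts and mesothelium and at 209 ± 168 CPM in monocytes.

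Peptide processing was led by conventional dendritic cells, which present antigen to T cells. The immunoproteasome subunit Psmb9 was at 201 to 341 CPM there, above every library of every other class. Psmb8 stood at 624 ± 188 CPM and Tap1, a subunit of the peptide transporter TAP, at 312 ± 53.0 CPM in the same cells. Hepatocytes were lowest for all of them, at 44.9 ± 16.97 CPM for Psmb8, 17.5 ± 5.47 CPM for Psmb9 and 12.7 ± 9.68 CPM for Tap1. Of the 37 genes, only Igtp and Psmb9 had a class whose libraries all lay above every library of all other tested classes.

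**Figure D3:**
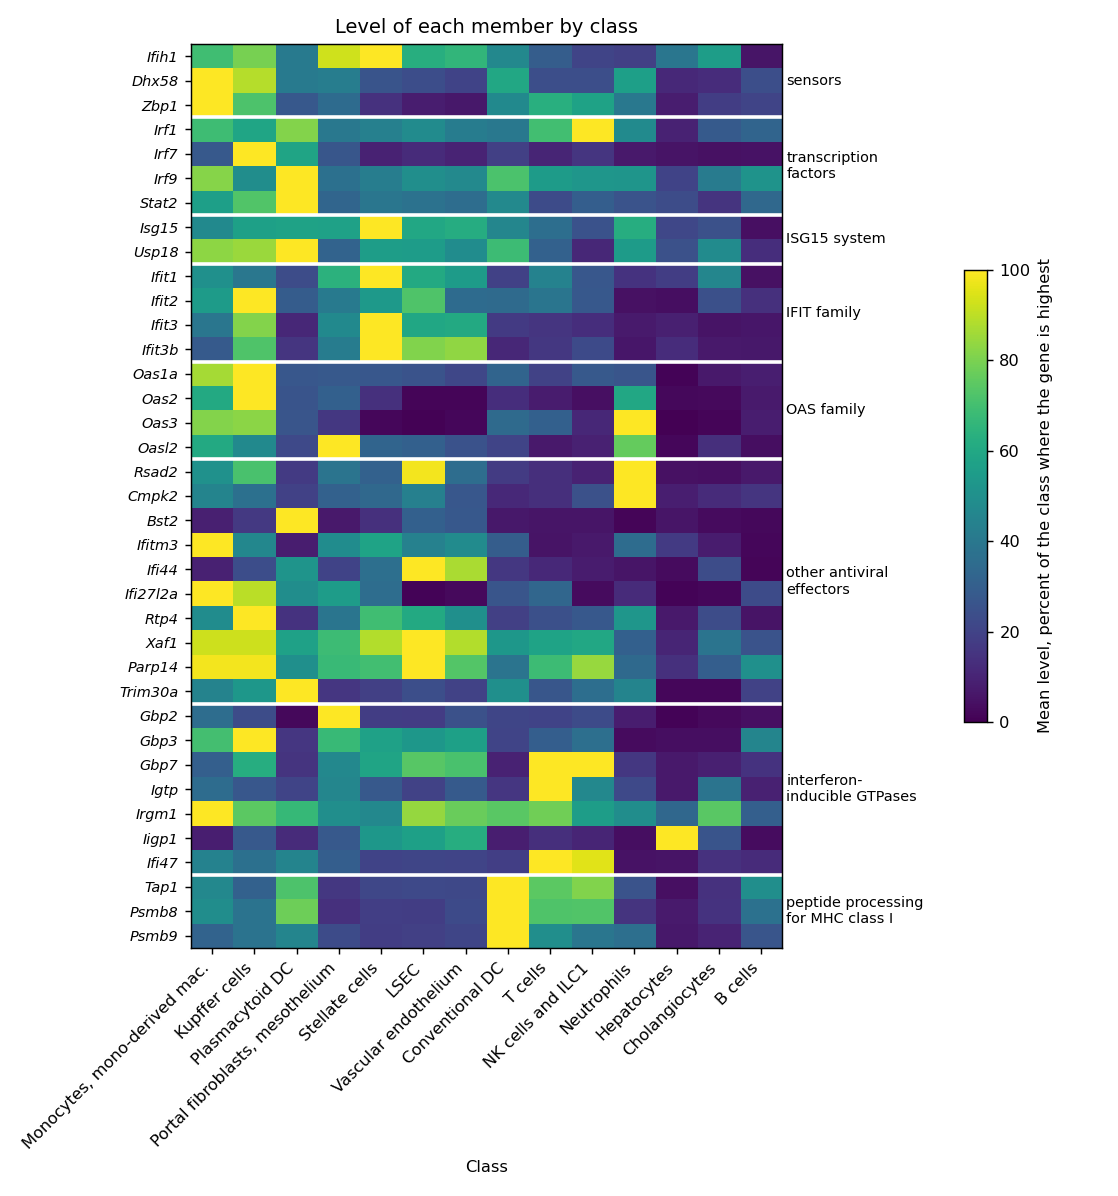
Mean level of each of the 37 genes (rows, grouped by role) in 14 classes (columns), scaled to the highest class of that gene. IFIT genes peak in stellate and Kupffer cells, GTPases such as Igtp in T cells, and peptide-processing genes in conventional dendritic cells.

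The share of cells that held several core interferon-stimulated genes differed between classes. Whether this share exceeds that of an even spread over cells was not tested. For each cell thinned to 1000 UMIs, a cell was counted where at least 3 of 10 core members (Ifit1, Ifit2, Ifit3, Ifit3b, Isg15, Rsad2, Usp18, Oasl2, Cmpk2 and Ifi44) had a UMI. LSEC had the highest share, 7.57% ± 2.45 (SD, n = 6), followed by vascular endothelium (5.31% ± 1.99), Kupffer cells (4.67% ± 2.25) and stellate cells (4.59% ± 1.92). In B cells the share was 0.51% ± 0.46, with 11 of 2518 cells, and in hepatocytes 0.37%. Without thinning the shares were 37.4% in LSEC, 42.8% in Kupffer cells, 33.1% in stellate cells and 0.80% in B cells.

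The LSEC share was 8.58%, 11.2% and 7.69% in the DMSO libraries and 6.03%, 8.06% and 3.91% in the CWHM-12 libraries. The highest, DMSO 2, has a Wilson 95% interval of 9.11% to 13.6%, and the lowest, CWHM-12 3, of 3.29% to 4.64%, both for counting error only. The groups overlapped, because CWHM-12 2 lay above DMSO 3. Kupffer cells had shares of 4.38%, 8.78% and 3.02% with DMSO and 4.17%, 5.22% and 2.44% with CWHM-12, again overlapping and again highest in DMSO 2. Stellate cells had 2.72%, 6.37% and 3.28% with DMSO and 2.78%, 7.11% and 5.28% with CWHM-12. No class of these showed a split of the libraries by treatment.

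Within LSEC the share differed between clusters. It was 10.3% in cluster 1 (311 of 3013 cells, Wilson 95% interval 9.29% to 11.5%), whose leading genes include Esm1, Cxcl9 and Cxcl10, and 3.58% in cluster 9 (2.76% to 4.63%). Cxcl9 and Cxcl10 are themselves interferon targets and helped to define that cluster. An unnamed cluster of macrophages, led by Cd207, Mmp12 and Gpnmb, had a share of 11.1% (53 of 479 cells, 8.56% to 14.2%). These cluster shares pool the cells of all libraries, so their intervals hold counting error only. CWHM-12 3, the library with the lowest LSEC share, held 934 of the 1537 cells of cluster 9 and 235 of the 3031 of cluster 1. Cluster and library were not separated. Without thinning, the cells with at least 3 core members (3396 of 10475 LSEC and 2453 of 5650 Kupffer cells) were deeper than their class. Their median was 4942 against 3790 UMIs in LSEC and 8552 against 5171 UMIs in Kupffer cells.

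**Figure D4:**
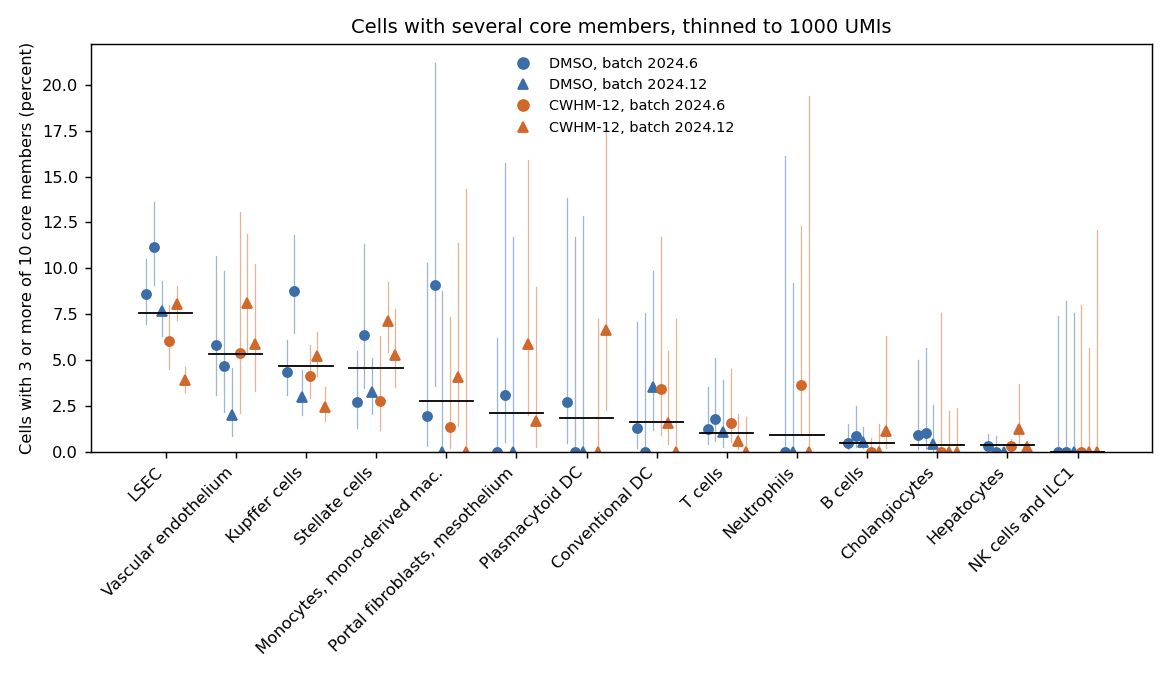
Percent of cells thinned to 1000 UMIs that hold at least 3 of 10 core members (vertical axis) by class, with 1 point per library coloured by treatment. LSEC libraries run from 3.91% to 11.2%, and the treatment groups overlap in LSEC, Kupffer cells and stellate cells.

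The comparison of CWHM-12 with DMSO asks which of these genes differ in each class when αV integrins are inhibited in the congested liver. Over 14 classes, 400 pairs of a member and a class went into edgeR's quasi-likelihood test with a batch term, and 1 passed at an adjusted p under 0.05: Ifitm3 in NK cells and ILC1. Over all genes, 10 of 102866 pairs passed. At an unadjusted p under 0.05 there were 28 pairs of members, or 7.0%, of which 21 were higher with CWHM-12, beside 2.57% of the pairs of all genes. The higher pairs were unevenly spread, with 8 in plasmacytoid dendritic cells, 5 in T cells and 2 in NK cells and ILC1. Markers of LSEC were also detected in these classes, as given below. Hepatocytes had 3 higher pairs, and Kupffer cells, monocytes and conventional dendritic cells 1 each. The 7 lower pairs lay in portal fibroblasts and mesothelium (3), cholangiocytes (2), LSEC (1) and Kupffer cells (1). DESeq2 called 0 members in any class. A log2 fold change above 0 means that the level was higher with CWHM-12.

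In LSEC, 12 of 35 tested members had a fold change above 0 and 23 below, with a median of -0.10, beside a median of 0.02 over all genes tested. Without CWHM-12 3 the median was 0.01 with 18 of 35 above 0, and without CWHM-12 2 it was -0.18 with 8 above 0. With edgeR 0 passed, beside 0% of 11659 genes, and 1 had an unadjusted p under 0.05, beside 2.3% of genes. Values of Ifit3b were 44.7, 58.9 and 63.4 CPM with DMSO and 37.7, 49.1 and 33.3 CPM with CWHM-12. Ifit3 followed, at 109, 146 and 141 CPM and then 86.9, 123 and 79.4 CPM. The groups overlapped for both, through CWHM-12 2, and the log2 fold changes were -0.54 (SE 0.22) and -0.51 (SE 0.23), each with an edgeR adjusted p of 0.996. All 4 IFIT genes had a fold change below 0, as did 6 of 7 GTPases, none of them past the test.

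The protease gene Usp18 was at 24.8, 42.03 and 24.5 CPM in LSEC with DMSO and at 24.04, 22.2 and 14.5 CPM with CWHM-12. Every CWHM-12 library lay below every DMSO library, by little for CWHM-12 1, and the log2 fold change was -0.44 (SE 0.29), or -0.26 without DMSO 2. Ifitm3 lay above instead, at 1463, 1101 and 1549 CPM with DMSO and 1603, 1807 and 1551 CPM with CWHM-12 (log2 0.22, SE 0.19). Here CWHM-12 3 and DMSO 3 were nearly equal, and DMSO 2 was the lowest library. Members without overlap in LSEC numbered 1 above and 2 below, beside 5.46% and 6.07% of all genes. Bst2 was at 474, 90.1 and 600.1 CPM with DMSO and 579.8, 560.4 and 418 CPM with CWHM-12, so its fold change of 0.37 (SE 0.60) became -0.05 without DMSO 2. Iigp1 was at 422, 532 and 332 CPM and at 378, 361 and 237 CPM, with overlap (log2 -0.24, SE 0.22). The clusters that make up LSEC shifted between libraries: cluster 9 had 20, 451 and 934 cells in CWHM-12 1 to 3, and 108 in DMSO 3, and cluster 1 had 894 cells in CWHM-12 2 and 235 in CWHM-12 3. Their part in these values was not tested.

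Kupffer cells had a fold change above 0 for 9 of 37 members and below 0 for 28, with a median of -0.15 beside 0.01 over all genes. The median was -0.25 within batch 2024.6 and -0.02 within batch 2024.12. Over both batches the median ran from -0.26 without DMSO 3 to -0.01 without CWHM-12 1, where 17 of 37 were above 0, and it was -0.065 without DMSO 2 and -0.058 without CWHM-12 3. With edgeR 0 members passed, beside 0% of 11357 genes, and 2 had an unadjusted p under 0.05, beside 1.97% of genes. The transporter gene Tap1 was at 105, 127 and 106 CPM with DMSO and 89.3, 79.8 and 72.6 CPM with CWHM-12. All 3 CWHM-12 libraries lay below all DMSO libraries (log2 -0.43, SE 0.15, edgeR adjusted p 0.999), and the value was -0.37 in batch 2024.6 and -0.48 in batch 2024.12. Ifitm3 ran the other way, at 1341, 1109.6 and 1405 CPM and then 1611, 1875 and 2156 CPM (log2 0.46, SE 0.16, edgeR adjusted p 0.999), with no overlap.

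The RNA-binding gene Ifit2 was also without overlap in Kupffer cells, at 92.6, 104 and 88.4 CPM with DMSO and 79.1, 80.5 and 55.4 CPM with CWHM-12 (log2 -0.35, SE 0.19). Members without overlap numbered 1 above and 2 below, beside 5.43% and 5.91% of all genes. The 4 IFIT genes and the 7 GTPases all had fold changes below 0, none past the test. Irf7 was at 357, 132 and 472 CPM with DMSO and 449, 469 and 443 CPM with CWHM-12, and Ifi27l2a at 491, 277 and 612 CPM and then 588, 618 and 646 CPM. Both were lowest in DMSO 2, and their fold changes of 0.41 (SE 0.38) and 0.33 (SE 0.25) became 0.12 and 0.15 without it. Kupffer cells, too, came from clusters of unequal share: cluster 0 held 206, 259 and 449 cells with DMSO and 257, 1172 and 969 with CWHM-12, and cluster 5 held 763, 207 and 402 and then 629, 180 and 83 cells.

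Whether the response differed between Kupffer cells and LSEC was tested as an interaction with the library as a block. Of 37 members 0 passed, beside 0% of 12691 genes, and 3 had an unadjusted p under 0.05, beside 6.11% of genes. The smallest p was that of Irf1, whose log2 fold change was 0.49 lower in Kupffer cells than in LSEC (difference -0.49, SE 0.14, edgeR adjusted p 0.580). Gbp2 differed by -0.35 (edgeR adjusted p 0.725) and Zbp1 by 0.65 (edgeR adjusted p 0.792). The median difference over the members was -0.02, beside -0.01 over all genes.

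In stellate cells 17 of 36 members had a fold change above 0, with a median of -0.02 beside 0.00 over all genes, and the median was -0.23 within batch 2024.6 and 0.14 within batch 2024.12. With edgeR 0 passed, beside 0% of 10360 genes, and 0 had an unadjusted p under 0.05, beside 1.81% of genes. Ifitm3 was at 1606, 1389 and 2083 CPM with DMSO and 1898, 2457 and 2495 CPM with CWHM-12, overlapping through CWHM-12 1 and DMSO 3 (log2 0.30, SE 0.20). Irf1 did not overlap, at 124, 105 and 135 CPM and then 139.8, 156 and 157 CPM (log2 0.24, SE 0.18). Members without overlap numbered 2 above and 1 below, beside 4.38% and 5.23% of all genes.

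Iigp1 had fold changes of opposite sign in the batches of stellate cells, at 425, 519 and 275 CPM with DMSO and 265, 326 and 294 CPM with CWHM-12. Its log2 fold change was -0.83 within batch 2024.6 and 0.17 within batch 2024.12. Bst2, at 169, 57.0 and 233 CPM and then 242, 295 and 219.7 CPM, had a fold change of 0.60 (SE 0.41), which was 0.30 without DMSO 2. Rtp4, a chaperone of receptor transport, was at 411 CPM in DMSO 2 and between 209 and 249.9 CPM in the other libraries, and its fold change of -0.15 (SE 0.31) was 0.13 without DMSO 2.

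In hepatocytes 21 of 33 members had a fold change above 0, with a median of 0.19 beside 0.01 over all genes, and 0 passed with edgeR beside 0% of 10358 genes, while 3 had an unadjusted p under 0.05, beside 1.57% of genes. The median was 0.08 without DMSO 3 and 0.37 without DMSO 1. Iigp1, which hepatocytes expressed most of all classes, was at 507, 437 and 553 CPM with DMSO and 694, 863 and 925 CPM with CWHM-12. Every CWHM-12 library lay above every DMSO library, with a log2 fold change of 0.62 (SE 0.34, edgeR adjusted p 0.999) and 0.56 and 0.69 within the batches. Irgm1, of the same GTPase family, did the same, at 51.0, 31.7 and 32.6 CPM and then 66.6, 55.1 and 51.3 CPM (log2 0.68, SE 0.30). Ifi47 was at 17.6, 21.5 and 14.8 CPM and at 37.4, 20.5 and 29.4 CPM, with overlap through CWHM-12 2 (log2 0.88, SE 0.31).

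Ifit1 was low in all hepatocyte libraries with DMSO, at 12.6, 6.53 and 3.71 CPM, and was at 16.9, 66.2 and 14.5 CPM with CWHM-12. The groups did not overlap, but CWHM-12 2 alone stood far above the rest, and the log2 fold change of 1.89 (SE 0.76) was 0.84 in batch 2024.6 and 2.86 in batch 2024.12. Ifit3 had the same shape, at 9.92, 4.67 and 5.14 CPM and then 10.1, 53.6 and 16.1 CPM. CWHM-12 2 held the fewest hepatocytes, 266 cells with 724256 UMIs. Markers of other classes were not summed in hepatocytes. Usp18 was lower, at 13.98, 13.1 and 13.99 CPM with DMSO and 6.26, 12.6 and 8.42 CPM with CWHM-12 (log2 -0.82). In hepatocytes 6 members lay above without overlap and 3 below, beside 4.51% and 3.12% of all genes. Ifitm3, at 394, 277 and 574 CPM and then 389, 980.0 and 889 CPM, overlapped. Bst2 was at 94.3, 15.9 and 113 CPM and then 57.7, 167 and 67.8 CPM, with a fold change of 0.02 that was -0.33 without DMSO 2.

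Hepatocytes came from different clusters in different libraries. Cluster 28 held 50.1% of the hepatocytes of DMSO 2 and at most 0.069% of those of any other library. Clusters 10 and 11 held 37.9% and 47.4% of CWHM-12 3, beside 3.38% and 1.86% of DMSO 1 and 0.853% and 0.213% of DMSO 2. The summed level of the 37 genes was 1069 CPM in cluster 28, 1803 CPM in cluster 11 and 2441 CPM in cluster 10. The part of these clusters in the fold changes was not tested.

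T cells had a fold change above 0 for 30 of 33 members, with a median of 0.39 beside 0.03 over all genes, and medians of 0.50 and 0.19 within batches 2024.6 and 2024.12. Without CWHM-12 1 the median was 0.25, and 29 of 34 were above 0. With edgeR 0 passed, beside 0% of 7830 genes, and 5 had an unadjusted p under 0.05, all higher, beside 4.09% of genes. Ifitm3 was at 211, 131 and 44.02 CPM with DMSO and 467, 113 and 94.1 CPM with CWHM-12 (log2 1.35, SE 0.24, edgeR adjusted p 0.427). The groups overlapped over all 6 libraries, while within each batch CWHM-12 was higher, by 1.47 and 1.18. The same gene was 2.09 log2 units higher in batch 2024.6 than in batch 2024.12 (edgeR adjusted p 0.00128). Ifi44 was at 26.8, 25.9 and 5.68 CPM and then 82.4, 17.2 and 4.38 CPM (log2 1.498, SE 0.41, edgeR adjusted p 0.810), and it too was higher in batch 2024.6, by 2.62 (edgeR adjusted p 0.00922).

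Bst2 was at 88.05, 37.03 and 45.4 CPM in T cells with DMSO and at 186, 73.6 and 67.8 CPM with CWHM-12 (log2 1.14, SE 0.33, edgeR adjusted p 0.822), and 0.90 without DMSO 2. The immunoproteasome gene Psmb8 stood at 508, 141 and 491 CPM and at 525, 526 and 525 CPM, so its fold change of 0.39 (SE 0.38) rested on DMSO 2 and was 0.07 without it. Of the 3 GTPase genes whose highest class was T cells, Ifi47 was at 405, 437 and 418 CPM and then 460.0, 421 and 527 CPM (log2 0.15, SE 0.18). Gbp7 was at 426, 407 and 331 CPM and then 485, 419.6 and 330.4 CPM (log2 0.20, SE 0.18). Igtp was at 123, 159 and 185 CPM and then 203, 169 and 199 CPM, with overlap (log2 0.27, SE 0.21). In T cells 3 members lay above without overlap and 0 below, beside 4.48% and 4.56% of all genes. T cells were also the class with a batch difference: 4 members (Ifi44, Ifitm3, Iigp1 and Oasl2) passed the batch test, all higher in batch 2024.6, beside 3.35% of 7830 genes. Summed LSEC markers in T cells were at least 3760 CPM in each library of that batch and at most 1089 CPM in the others. The part of these markers in the batch difference was not tested.

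B cells had the lowest levels and fold changes near 0, with 15 of 27 members above 0 and a median of 0.03 beside -0.02 over all genes. With edgeR 0 passed, beside 0% of 8355 genes, and 0 had an unadjusted p under 0.05, beside 1.38% of genes. Gbp2 was at 14.8, 27.6 and 16.2 CPM with DMSO and 30.6, 18.7 and 42.8 CPM with CWHM-12 (log2 0.69, SE 0.43), with overlap. Tap1 was at 154, 170.3 and 187 CPM and then 152, 105 and 157 CPM (log2 -0.31, SE 0.23), also overlapping. Ifitm3 was at 143 CPM in CWHM-12 3 and between 32.4 and 53.7 CPM elsewhere, and Trim30a, at 147, 186 and 126 CPM and then 136, 128 and 105 CPM, had a fold change of -0.20, or -0.07 without DMSO 2. Psmb8 was at 81.3 CPM in DMSO 2 and between 219 and 286 CPM in the others, with a fold change of 0.21 that was -0.08 without DMSO 2. Of the 27 members 0 were without overlap, beside 4.37% (above) and 6.76% (below) of all genes.

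**Figure D5:**
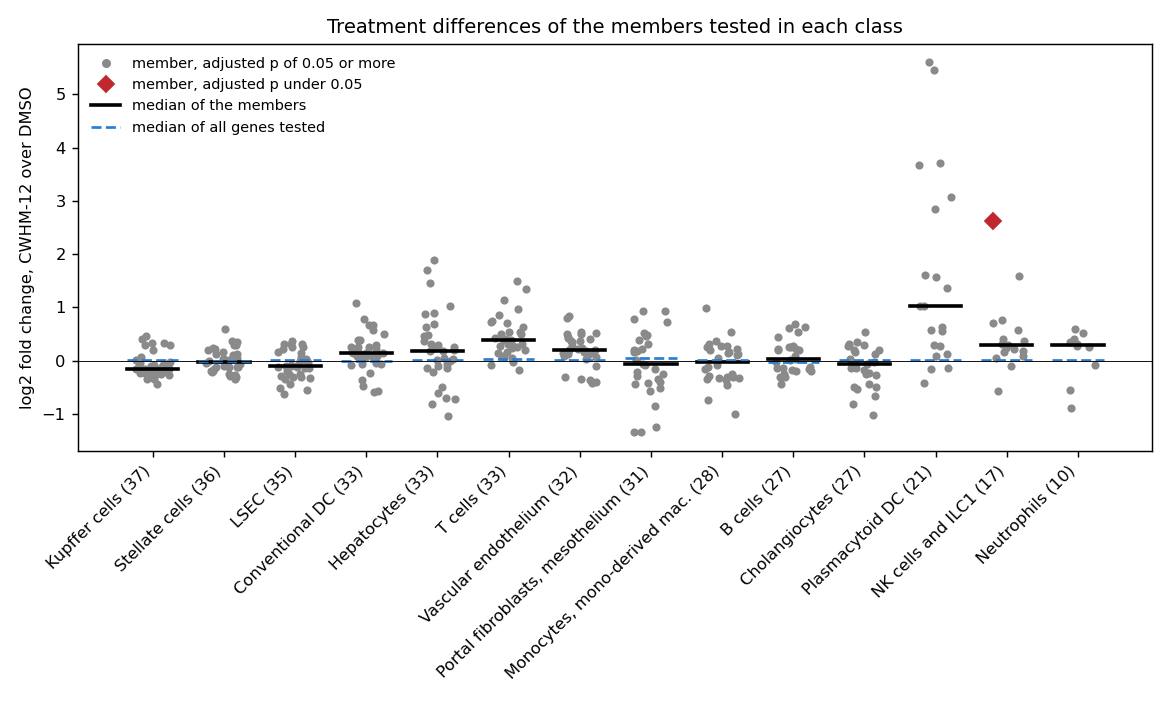
Log2 fold change (CWHM-12 over DMSO, vertical axis) of each member tested, as 1 point per gene, by class, with the median of the members and of all genes. The medians of the members run from -0.15 in Kupffer cells to 1.03 in plasmacytoid dendritic cells, and those of all genes stay between -0.02 and 0.04.

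NK cells and ILC1 held the only member that passed. Ifitm3 was at 154, 58.0 and 38.1 CPM with DMSO and at 796, 191 and 145 CPM with CWHM-12. The log2 fold change was 2.62 (SE 0.39, edgeR adjusted p 0.0146), 2.87 within batch 2024.6 and 1.77 within batch 2024.12, and the groups overlapped slightly, since DMSO 1 lay above CWHM-12 3. The call was lost without DMSO 1 (edgeR adjusted p 0.0858), DMSO 3 (0.216), CWHM-12 1 (1.00) or CWHM-12 2 (0.138), with DESeq2 (adjusted p 0.197) and without the batch term (edgeR adjusted p 0.996). Of 17 members tested 1 passed, beside 0.256% of 3128 genes, and 2 had an unadjusted p under 0.05, beside 3.68%. These values rest on 27, 6 and 6 UMIs with DMSO and 166, 19 and 7 with CWHM-12. Of these, 26, 5 and 3 and then 162, 15 and 2 UMIs lay in the few cells that also held at least 3 of 24 markers of LSEC or Kupffer cells, which were 4, 3 and 11 cells with DMSO and 9, 11 and 3 with CWHM-12.

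Summed markers of LSEC in NK cells and ILC1 were at 1158, 1757 and 225 CPM with DMSO and 5421, 1531 and 393 CPM with CWHM-12, with 10 to 12 of 12 markers detected. Markers of Kupffer cells were at 89.4, 71.2 and 675 CPM and at 575, 320 and 428 CPM, with 6 to 11 of 12 detected and Marco at 0 in all 6 libraries. LSEC and Kupffer cells express Ifitm3 at over 1000 CPM. In a fit chosen after seeing these values, without the cells that held such markers, 0 of 9 members passed in NK cells and ILC1, and too few counts of Ifitm3 were left to test it. In T cells, too, LSEC markers were at 3760, 4270 and 547 CPM with DMSO and 6882, 858 and 1089 CPM with CWHM-12 (11 to 12 of 12 detected), and Kupffer cell markers at 656, 186 and 353 CPM and then 1249, 1300.3 and 661 CPM. Without those cells Ifitm3 in T cells had a log2 fold change of 1.08 (SE 0.36, edgeR adjusted p 0.997), and 22 of the 28 members then tested were above 0.

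Irf7 in NK cells and ILC1 was at 45.5, 29.02 and 19.03 CPM with DMSO and 101, 80.6 and 83.1 CPM with CWHM-12, without overlap (log2 1.60, SE 0.56, edgeR adjusted p 0.969). It was also without overlap in monocytes and monocyte-derived macrophages, at 97.6, 51.7 and 69.7 CPM and then 145, 183 and 102 CPM (log2 0.98, SE 0.39). In this class 14 of 28 members had a fold change above 0, with a median of -0.02. Isg15 in conventional dendritic cells was at 22.4, 11.2 and 21.2 CPM and then 51.9, 28.6 and 39.1 CPM (log2 1.08, SE 0.43), where 24 of 33 members were above 0. Irf7 and Isg15 are among the genes that are lowest in DMSO 2, and without it the 3 values were 1.47, 0.80 and 0.91. None of these values passed the test. Members without overlap numbered 2 above and 0 below in NK cells and ILC1 (4.8% and 5.15% of all genes), 1 and 0 in monocytes (6.18% and 6.01%) and 2 and 1 in conventional dendritic cells (5.13% and 5.5%). Monocytes and conventional dendritic cells had 0 members past the edgeR test, beside 0% of genes in each, and 1 each at an unadjusted p under 0.05, beside 2.37% and 3.02% of genes.

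In plasmacytoid dendritic cells, a major source of type I interferon, 18 of 21 members had a fold change above 0, with a median of 1.03 beside 0.01 over all genes. CWHM-12 1 had too few of these cells, so with the batch term the value rests on DMSO 3 against CWHM-12 2 and CWHM-12 3. The median was 0.38 without the batch term and 0.62 with the replicate block in its place, over the same 21 members. Over fewer members it was 0.61 with the stricter cell filter (17 tested) and 0.55 with classes from marker scores (19). It was 0.58 without DMSO 1 (17) and 0.80 without DMSO 2 (18). Medians over different members cannot be compared directly. DMSO 3 was low for several members. Oasl2 was at 113, 131 and 20.4 CPM with DMSO and 159 and 194 CPM in CWHM-12 2 and 3 (log2 3.07, SE 0.67, edgeR adjusted p 0.999), and Iigp1 at 113, 97.9 and 6.80 CPM and then 88.3 and 104 CPM. Ifi27l2a, at 223, 212 and 204 CPM and then 424 and 409.5 CPM, was even among DMSO libraries and had a fold change of 1.03. Batch 2024.6 holds only DMSO libraries here, so leaving out DMSO 1 or DMSO 2 is no check of a fold change in this class. With edgeR 0 passed, beside 0% of 3719 genes, and 8 had an unadjusted p under 0.05, beside 2.74%. Without overlap 9 lay above and 0 below, beside 11.6% and 9.65% of all genes. Summed LSEC markers in this class were at 4909, 3122 and 242 CPM with DMSO, where DMSO 3 had 6 of 12 markers detected (Stab2 and Stab1 at 0), and at 987 and 764 CPM in CWHM-12 2 and 3 (12 and 11 detected). Kupffer cell markers were at 488, 3058 and 318 CPM and then 200.4 and 2682 CPM, with 8 to 11 of 12 detected. Their part in these fold changes was not tested.

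In cholangiocytes, which line the bile ducts, some members had the opposite sign to hepatocytes, a difference that was not tested. Iigp1 was at 284, 299.5 and 152 CPM with DMSO and 105, 114 and 83.6 CPM with CWHM-12, without overlap (log2 -1.01, SE 0.24, edgeR adjusted p 0.679). Irgm1 was at 136, 207 and 93.0 CPM and then 66.9, 89.7 and 51.7 CPM (log2 -0.81), also without overlap. In this class 16 of 27 members had a fold change below 0, and with edgeR 0 passed, beside 0.0111% of 9039 genes, while 2 had an unadjusted p under 0.05, beside 2.58%. Without overlap 1 lay above and 5 below, beside 5.52% and 5.33% of all genes. In vascular endothelium 26 of 32 members were above 0, with a median of 0.20, which was 0.08 without CWHM-12 2 (19 of 32 above 0), 0.12 without DMSO 3, 0.35 without CWHM-12 1 and 0.31 without CWHM-12 3. Cluster 22, with a summed level of 5766 CPM beside 4807 CPM in cluster 18, held 29.7%, 34.1% and 12.5% of this class with DMSO and 26.3%, 45.3% and 84.0% with CWHM-12, and its part in this median was not tested. Its Ifitm3 was at 1508, 1082 and 1550.1 CPM with DMSO and 1875, 2039 and 1876 CPM with CWHM-12, without overlap (log2 0.43, SE 0.21). In this class 5 members lay above and 4 below without overlap, beside 6.07% and 6.08% of all genes. No member of its 32 passed with edgeR (0% of 8613 genes), and 0 had an unadjusted p under 0.05, beside 2.89%.

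Portal fibroblasts and mesothelium, again without CWHM-12 1 and so resting on DMSO 3 against CWHM-12 2 and CWHM-12 3, had 14 of 31 members above 0. Cluster 42 held 46.2% of this class in CWHM-12 2 and 6.25% to 10.2% in the other libraries used. Their leading gene Oasl2 was at 605, 771 and 578 CPM with DMSO and 444 and 418 CPM with CWHM-12, without overlap (log2 -0.42), and 0 members passed with edgeR beside 0.0169% of 5906 genes. At an unadjusted p under 0.05 there were 3, all lower, beside 5.11%, and 6 lay above and 2 below without overlap, beside 16% and 13.4%. In neutrophils, without DMSO 1 and CWHM-12 3, 7 of 10 members were above 0, with a median of 0.30. The edgeR test passed 0, beside 0% of 1947 genes, and 0 had an unadjusted p under 0.05, beside 3.49%, while 1 lay above and 0 below without overlap, beside 14.6% and 14.2%.

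The members also differed between the labelled batches. The edgeR test of batch passed 4 members over all classes, those named in T cells, a class where summed LSEC markers also differed by batch. Of all genes, 0.224% passed it in NK cells and ILC1, 0.108% in plasmacytoid dendritic cells, 0.0508% in portal fibroblasts and mesothelium, 0.00965% in stellate cells, 0.00881% in Kupffer cells and 0% in the 8 other classes. The median of the members was higher in batch 2024.6 in 12 of 14 classes, and their median in DMSO 3 was below the mean of the class in 13 of 14 classes. CWHM-12 3 was below it in 10 of 13. DMSO 2 was the highest library in 6 of the 11 classes that had all libraries.

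Of 69 other listed genes of the interferon pathway, from ligands and receptors to further targets, between 21 (neutrophils) and 60 (Kupffer cells) were tested in a class, and with edgeR 0 of those tested passed in any class. In LSEC 34 of 57 tested were above 0, with a median of 0.05, and all 9 genes of class I presentation were above 0, with a median of 0.16. In Kupffer cells 27 of 60 were above 0 (median -0.03), in stellate cells 39 of 56 (0.07), in hepatocytes 26 of 48 (0.07), in T cells 37 of 55 (0.14) and in B cells 30 of 49 (0.05). Socs1, a feedback inhibitor of JAK kinases, had a log2 fold change of 1.27 in LSEC with an unadjusted p of 0.020 in edgeR, and did not pass. Cxcl10, a chemokine induced by interferon gamma, had one of 2.08 in T cells with an unadjusted p of 7.5e-05, and did not pass either, with a smallest edgeR adjusted p among pathway genes of 0.270 in this class. Its values in T cells were 25.996, 42.6 and 7.10 CPM with DMSO and 123, 40.7 and 45.95 CPM with CWHM-12, highest in CWHM-12 1, where LSEC markers were highest in this class too, and Cxcl10 is a leading gene of LSEC cluster 1. Of the interferon genes counted, Ifng had 196 UMIs in T cells, 40 in NK cells and ILC1 and 1 in each of hepatocytes, Kupffer cells, LSEC and stellate cells, and Ifnl2 had 1 UMI in LSEC. Ifnb1, Ifna1, Ifna2, Ifna4 and Ifnl3 were not analysed here.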

How the data were processed

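The authors deposited whole-number counts of UMIs per gene and barcode for 6 BD Rhapsody libraries of liver cells, 10000 barcodes each, per the file headers. The submitters' processing notes name GRCm39, and the aligner is not given in the sources used here. Promoters (GRCm38.p6, RefSeq) and transcript GC content (GENCODE vM21) were matched by symbol, and no coordinate was carried between builds.

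Cells with at least 300 genes, 500 UMIs and at most 30% mitochondrial UMIs were kept. Scrublet (scanpy 1.11.5) marked as few as 0.0495% of cells by its automatic threshold, so cells scoring over 0.25, a value set after seeing this, were removed (36 to 215 per library). Leiden clustering (leidenalg 0.10.2, resolution 1.5, 2000 genes, 40 components, 20 neighbours) gave 48 clusters, of which 38 were named by hand into 16 classes from markers. The names are rebuilt here. Counts summed per class and library (at least 20 cells) were fitted with edgeR 4.0.16 (TMM, low-count filter, batch term, Benjamini-Hochberg at 0.05 over all genes of a class), tested on simulated data first. DESeq2 1.42.0 was an alternative. Values within a batch use a prior count of 2.

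The members and lists were chosen with earlier results of these data known. Values in each library are given for the 3 members of smallest p and the 3 of highest mean (at least 20 CPM) in each main class, for any member that passed and for the leading member of each role. Other members named with values in each library were chosen after their values were seen.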

Additional observations from a re-analysis of the deposited data

Results flagged for a closer look

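For 4 members the treatment groups did not overlap in either of 2 classes and lay in opposite order, though none passed the test in either class. Ifit1 had a log2 fold change of 1.89 in hepatocytes, where CWHM-12 2 alone stood far above the rest, and -0.66 in cholangiocytes. Irgm1 had 0.68 in hepatocytes and -0.81 in cholangiocytes, and Iigp1 had 0.62 and -1.01 in the same classes. Xaf1, a pro-apoptotic interferon target, had 0.20 in vascular endothelium and -0.53 in cholangiocytes. In each case every CWHM-12 library lay above every DMSO library in the first class and below in the second. The difference between the classes was not tested, and the members were picked out of 37 for this pattern.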

How the results depend on the processing

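The count of members called over all classes, 1 as reported, was 0 without the batch term, with the replicate block, with DESeq2 and with classes from marker scores alone. It was also 0 when cells holding 3 or more LSEC or Kupffer markers were left out of NK cells and T cells and the other classes kept as they were, but Ifitm3 in NK cells was then not tested. It was 5 without the filter on low counts (Iigp1 in cholangiocytes, Bst2 and Ifitm3 in both NK cells and T cells) and 6 with the stricter cell filter (Ifitm3 in NK cells and ILC1, and Ifi27l2a, Ifi44, Ifitm3, Iigp1 and Oasl2 in plasmacytoid dendritic cells). Leaving out 1 library gave 0 to 1, with the call kept without DMSO 2 or CWHM-12 3. Calls over all genes moved too, from 10 pairs of a gene and a class as reported to 515 without the filter on low counts. With the stricter cell filter they were 52, of which 46 were in plasmacytoid dendritic cells, of 3192 genes tested there. All-gene calls were 4 without the batch term, 7 with the replicate block, 35 with DESeq2 and 0 with marker scores alone. They were 163 without DMSO 1, 101 without DMSO 2, 54 without CWHM-12 3 and 0 to 6 without each of the others. The cause was not tested. Without the cells holding markers, plasmacytoid dendritic cells could not be fitted.

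Ifitm3 in NK cells and ILC1 was 2.26 without the batch term, 2.10 with the replicate block (edgeR adjusted p 0.0755), 2.52 with DESeq2, 1.56 with marker scores and 2.10 to 3.03 when 1 library was left out. Correlations of same-numbered libraries ran from -0.19 (number 3 in monocytes) to 0.47 (number 3 in hepatocytes), and in no class were all 3 above 0.1. By the labels, the libraries numbered 1 also share a batch, as do those numbered 3. Whether same-numbered libraries are pairs was not tested. The median fold change in B cells was 0.19 with the stricter cell filter and -0.064 to 0.28 when 1 library was left out, and in stellate cells -0.24 to 0.18. Ifitm3 in B cells, 0.64 as reported, ran from -0.16 without DMSO 3, a reversal, to 1.60 without CWHM-12 1. Cells with at least 2 core members were 1.27% of B cells, 17.3% of Kupffer cells, 17.6% of LSEC, 14.9% of stellate cells and 2.41% of T cells. Without thinning, 42.8% of Kupffer cells, 37.4% of LSEC, 33.1% of stellate cells and 5.55% of T cells held at least 3. Of 249 values of named members under alternatives, 238 kept their direction and their side of the threshold, and of the counts, medians and shares 88 were the same and 25 moved.

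With 3 libraries a group, classes of few cells, such as NK cells, give wide errors.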
